A study of Arabidopsis thaliana with 16 samples.

Results

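Transcript levels in the embryo proper were compared with those in the seed coat of Arabidopsis thaliana Ws-0 seeds at the heart stage. The comparison rests on 4 of the 16 arrays of the study, 2 of the embryo proper and 2 of the seed coat, chosen by their labels, and the chalazal seed coat, which was captured separately, is not part of it. The other arrays held the chalazal seed coat, 3 regions of the endosperm (micropylar, peripheral and chalazal) and whole seeds. The labels give the genotype of every group as Ws-0, name no treatment and say that the plants grew in continuous light. Per the labels, siliques of 1.2 to 1.5 cm were taken from plants 38 to 46 days old, their seeds held embryos 52 to 85 micrometres long, and the compartments were cut by laser from paraffin sections of tissue fixed in ethanol and acetic acid. From each sample 5 to 6 ng of RNA was amplified and hybridised to an Affymetrix ATH1 array, a chip with 1 probe set per transcript or group of similar transcripts. The labels call the 2 arrays of a group biological replicates and do not say which plants or sections went into each, so a p-value here reflects the spread between arrays, which may be technical.

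A seed holds the new generation inside maternal tissue. The embryo proper is a product of fertilisation and at the heart stage forms its first organs, the cotyledons and the axis, by steady cell division. The seed coat develops from the maternal integuments of the ovule around it. In Arabidopsis its innermost layer makes proanthocyanidins, the colourless tannins that later turn the seed brown, while other layers store starch, make mucilage or die in a set order. The comparison therefore addresses which transcripts separate the young plant from the maternal tissue that encloses it.

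A level below is the log2 of an array's signal plus an offset of 30.2, after centring all arrays on a common median level of 7.36, so that 1 unit is a doubling of the sum. Differences between low levels are understated on this scale. Array background was read from 27 probe sets for Bacillus genes, and their 95th percentile on an array is called the control bound. It was lower on the embryo proper arrays (levels of 5.99 and 5.92) than on the seed coat arrays (7.03 and 6.63). Accordingly 68.2% and 71.1% of Arabidopsis probe sets exceeded it in the embryo proper, against 54.8% and 60.5% in the seed coat. Where both arrays of the low side were at or under their bound, a fold is given as "at least", computed against the bound. Over all probe sets, which are not independent replicates, the 2 embryo proper arrays correlated at 0.960 and the 2 seed coat arrays at 0.935 (Pearson's r), and arrays of different tissue at 0.732 to 0.743. The median SD between replicates was 0.27 in the embryo proper and 0.32 in the seed coat. The 3' to 5' signal ratio of a control gene is a sign of RNA length. For GAPDH it was 9.66 and 3.56 in the embryo proper against 6.61 and 9.31 in the seed coat, so the ranges overlapped. For actin they also overlapped, with 40.8 and 12.4 against 13.9 and 31.6. For ubiquitin they did not, and both embryo proper arrays had the higher ratio, with 10.4 and 9.44 against 6.23 and 7.81.

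Of 22746 Arabidopsis probe sets, 1622 were higher in the embryo proper and 1733 higher in the seed coat (limma, Benjamini-Hochberg adjusted p under 0.05). These are 7.13% and 7.62% of all probe sets, the background against which the counts of each gene list below are read. A probe set that passed this test is said to have been called. The differences towards the seed coat ran to larger sizes. A fitted difference of 16-fold or more was called for 213 probe sets towards the embryo proper and for 374 towards the seed coat, one of 64-fold or more for 18 and 116, and one of 256-fold or more for 0 and 17. Among the called probe sets that were higher in the embryo proper, 542 (33.4%) were at or under the control bound on both seed coat arrays, where the bound was higher. In the other direction, 384 (22.2%) were at or under it on both embryo proper arrays. The median difference over all probe sets was -0.11. In tissue captured in bulk, fewer cells that express a gene and less RNA of that gene per cell cannot be told apart, and this holds for every value below. Of the called probe sets, 862 and 908 name exactly 1 gene in the annotation used here, and 741 and 797 carry no name.

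**Figure D1:**
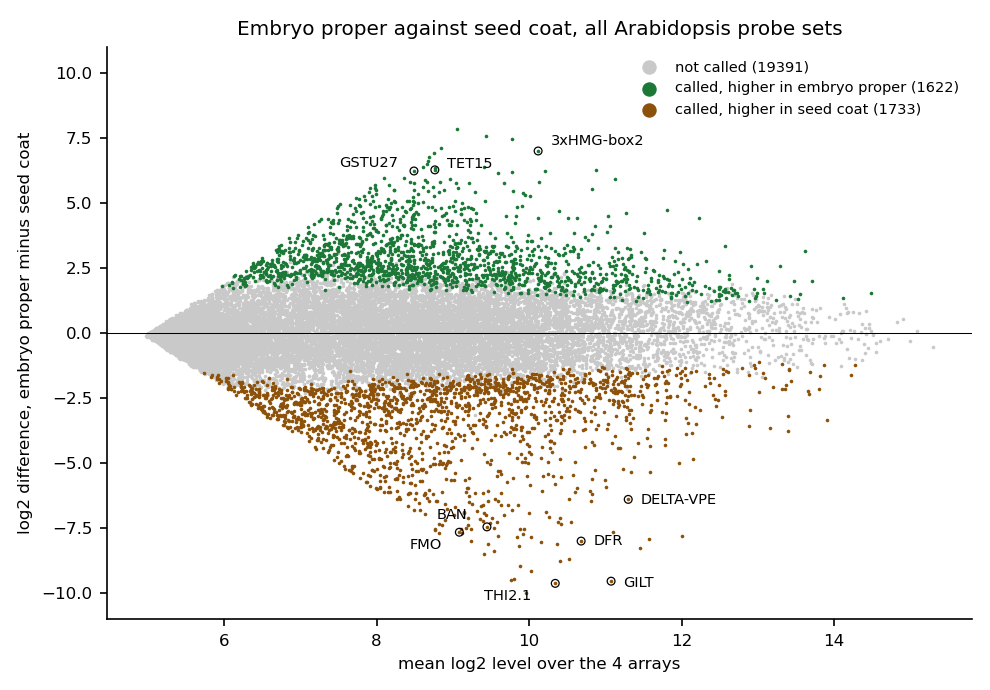
Difference between embryo proper and seed coat (log2, embryo proper minus seed coat) against the mean level over the 4 arrays (log2), 1 point per probe set. Green points were called higher in the embryo proper (1622), brown points higher in the seed coat (1733) and grey points were not called; the brown points reach a size of 9.99 and the green ones a size of 7.86.

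The labels were first checked against genes that mark each tissue. A list of embryo patterning and meristem genes had 12 members on the array under a usable name, and 8 of them were higher in the embryo proper while 0 were higher in the seed coat. The median difference of the 12 was 2.70. In the embryo proper all 12 exceeded the control bound on both arrays, and in the seed coat 9 were at or under it on both. Their summed signal was 11118 and 10846 in the embryo proper against 3403 and 2690 in the seed coat. Flavonoid genes did the opposite: the 5 named members of that list summed to 42803 and 42364 in the seed coat and to 354 and 385 in the embryo proper. Other seed coat lists had few named members. Of 2 genes of seed coat epidermis and mucilage, 1 was higher in the seed coat and 0 in the embryo proper. Of 3 genes of its abaxial, vascular and transfer tissue, 0 were higher in the seed coat. In that list SAG29 was higher in the embryo proper (2.16 ± 0.74, limma adjusted p = 0.0476), and 2 were not called. The sum of the 12 embryo genes was not low everywhere else. It was 6907 to 8972 on the chalazal endosperm arrays and 5319 to 6582 on the chalazal seed coat arrays. On those arrays 6 to 11 of the 12 were at or under the bound, so a few bright members carried the sums. Genes known from the regulation of the endosperm, the other fertilised tissue of the seed, gave no calls. Of 12 members 0 were called in either direction by limma, also 0 at an unadjusted p under 0.05, and their signal summed to 1387 and 1407 in the embryo proper against 1303 and 810 in the seed coat. The sums were 1630 and 2950 on the micropylar endosperm arrays, 1949 and 1832 on the peripheral ones and 5956 to 11220 on the chalazal ones. A sum can rest on a few bright members and does not speak for the whole list. AGL91 averaged 11.8 in chalazal endosperm, beside 7.44 in micropylar and 7.07 in peripheral endosperm. On the chalazal endosperm arrays 2 to 6 of the 12 were at or under the bound. Of the 12 members 6 were at or under the bound on all 4 embryo proper and seed coat arrays, so a difference in them could be missed. This state held for AGL62, a MADS-box repressor of endosperm cellularisation, and IKU2, a receptor kinase for endosperm growth.

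NUB (AT1G13400), a zinc finger gene of lateral organ shape, led the embryo list. It had levels of 10.64 and 10.81 on the embryo proper arrays and of 5.98 and 5.19 on the seed coat arrays, a difference of 5.14 ± 0.67 (SE; limma adjusted p = 3.17e-06) and at least 14.9-fold. SPT (AT4G36930), a basic helix-loop-helix regulator known from the carpel, had 10.49 and 10.29 against 5.78 and 5.09 and was at least 11.8-fold higher (adjusted p = 4.07e-06). For both genes the lowest embryo proper array lay more than 4 units above the highest seed coat array. GSO1 (AT4G20140), a receptor kinase needed for the embryo's cuticle, was at least 10.8-fold higher, with levels of 10.41 and 10.12 against 5.28 and 6.40. PHV (AT1G30490), a homeodomain gene of adaxial identity, was at least 10.3-fold higher, with 10.47 and 9.91 against 5.92 and 6.16. Members with smaller differences were YAB5, a YABBY gene of lateral organs (3.19 ± 0.67), and BBM, an AP2-domain gene that can induce embryo formation (3.07 ± 0.70). JKD, a zinc finger gene of root ground tissue (2.33 ± 0.71, adjusted p = 0.025), and LHW, a regulator of vascular cell division (2.24 ± 0.76, adjusted p = 0.0472), passed the test narrowly. When any 1 of the 4 arrays was left out, 6 of the 12 genes were still called, JKD never, LHW only without the first seed coat array and BBM in all cases but that one. Fewer calls were made in every such refit, with 759 to 914 probe sets higher in the embryo proper in place of 1622.

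The 4 embryo genes that were not called had different levels. CR4 (AT3G59420), a receptor kinase of the epidermis, was well above the bound in both tissues, with 10.32 and 10.55 in the embryo proper against 9.17 and 10.04 in the seed coat (difference 0.83 ± 0.74, adjusted p = 0.566). KEU, a Sec1-type protein of cytokinesis, also had similar levels on all 4 arrays, between 10.32 and 10.94. CLV3, the stem cell peptide of the shoot meristem, stayed between 6.13 and 6.46, and YAB3 between 5.43 and 6.63. On the seed coat arrays these 2 genes were at or under the bound.

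Genes of mitosis and cytokinesis had the highest share of called genes among the lists of at least 5. Of 11 named members, 10 were higher in the embryo proper and 0 in the seed coat, and their median difference was 4.31. Leaving out 1 array in turn gave 8 or 9. The largest was that of 3xHMG-box2 (AT4G23800), whose protein binds mitotic chromosomes. Its levels were 13.52 and 13.72 in the embryo proper against 6.89 and 6.34 in the seed coat, a difference of 7.0 ± 0.63 (adjusted p = 8.35e-09), and at least 110-fold. Its relative 3xHMG-box1 was at least 14.8-fold higher, with 10.49 and 10.95 against 6.96 and 5.08. In both genes the seed coat levels were at the array background.

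The 3 Aurora kinases, which act on chromosomes and the division plane, were all higher in the embryo proper. AUR1 had levels of 10.26 and 10.39 against 5.25 and 6.36 (at least 11.3-fold), AUR2 10.79 and 10.86 against 7.20 and 5.32, and AUR3 9.60 and 9.43 against 6.21 and 5.53 (at least 6.42-fold). Of the spindle checkpoint genes, BUBR1 differed by 4.31 ± 0.65 and BUB3.1 by 2.56 ± 0.55. BUB3.2 differed by 2.43 ± 0.69 (adjusted p = 0.0163) and lost its call without either embryo proper array or the first seed coat array. KINESIN-12B (AT3G23670), a motor of the phragmoplast that builds the new wall, rose from 6.12 and 7.08 in the seed coat to 11.37 and 11.09 in the embryo proper. HTR12, the histone H3 variant of centromeres, was higher by 2.95 ± 0.75 (adjusted p = 0.00691), a call lost without the second array of either tissue. The member that was not called was ATMAP65-6, a microtubule-associated protein, with 8.66 and 9.32 against 8.01 and 6.63.

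Genes of DNA replication and chromatin were also called. Of 4 genes of DNA replication, 2 were higher in the embryo proper, also with any 1 array left out. They are POLD3, a DNA polymerase delta subunit (3.28 ± 0.57), and PRL (AT4G02060), which encodes the MCM7 subunit of the replicative helicase (2.69 ± 0.58). Of 10 genes for SNF2 chromatin remodellers, 3 were higher and 2 lower, or 2 or 3 and 1 or 2 with an array left out. CHR23 (AT5G19310) had 12.19 and 11.83 in the embryo proper against 6.20 and 6.94 in the seed coat, and CHR17, of the ISWI class, had 12.65 and 12.89 against 9.55 and 9.42. Apart from these groups, 1 of 13 ubiquitin-conjugating enzymes was higher and 1 lower, which is near the 7.13% and 7.62% of all probe sets. The lower one was not called with every array left out. The higher one, UBC20 (AT1G50490), differed by 5.76 ± 0.62, with 11.90 and 12.28 against 7.34 and 5.33.

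Mitotic genes were about as bright in parts of the endosperm as in the embryo proper. The mean level of 3xHMG-box2 was 13.7 in micropylar and 13.4 in peripheral endosperm, beside 13.6 in the embryo proper. It was 9.13 in chalazal endosperm and 6.19 in chalazal seed coat. AUR1 averaged 11.3 in micropylar, 10.9 in peripheral and 9.87 in chalazal endosperm, and 5.88 in chalazal seed coat. Both seed coat regions thus had the lowest levels of these genes. CHR23 differed from them, since its highest mean was that of the chalazal endosperm (14.3), and chalazal seed coat averaged 10.5.

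Genes with the largest differences towards the embryo proper were, by a fixed rule, the 15 called probe sets that name 1 gene and whose arrays do not overlap. Groups without overlap, the embryo proper above, were found for 27.9% of all probe sets. The largest was that of AT2G34700, with 13.39 and 13.07 in the embryo proper against 5.10 and 6.18 in the seed coat (7.59 ± 0.78, at least 84.3-fold). AT3G24250 followed with 13.05 and 13.95 against 6.93 and 5.16 (at least 102-fold), and AT3G15720 with 12.54 and 12.27 against 5.34 and 5.21 (at least 47.5-fold). All 3 were at or under the control bound on both seed coat arrays. TET15 (AT5G57810), a tetraspanin of the membrane, had 12.22 and 11.58 against 5.02 and 6.24 and was at least 33.5-fold higher. Of 15 tetraspanins 3 were higher in the embryo proper and 2 in the seed coat, or 1 or 2 and 0 to 2 with an array left out. GSTU27 (AT3G43800), a tau-class glutathione S-transferase, was at least 27.3-fold higher, with 11.85 and 11.36 against 5.65 and 5.10. ATLP-1 (AT1G18250), a thaumatin-like protein, was at least 34.3-fold higher. The rest of the 15, besides 3xHMG-box2, were AT3G08030, AT3G44050, AT5G60930, AT5G50740, AT5G51560, AT1G04660, AT5G01075 and AT1G71870, with differences between 5.82 and 6.51. Because all 15 were picked for large called differences on these arrays, a call kept in a refit is no separate evidence. No gene among the 15 lost its call under any alternative processing.

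These genes divided by their levels in the endosperm. TET15 averaged 11.9 in the embryo proper, 9.12 in the micropylar endosperm and 6.18 in the peripheral endosperm. GSTU27 averaged 11.6, 7.56 and 5.21 in the same order. AT3G44050 and AT5G60930 were as bright in the endosperm as in the embryo proper: AT3G44050 averaged 12.6, 12.9 and 12.3 and AT5G60930 11.8, 12.2 and 11.7. NUB averaged 7.80 in micropylar and 6.24 in peripheral endosperm, both below its mean of 10.7 in the embryo proper.

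**Figure D2:**
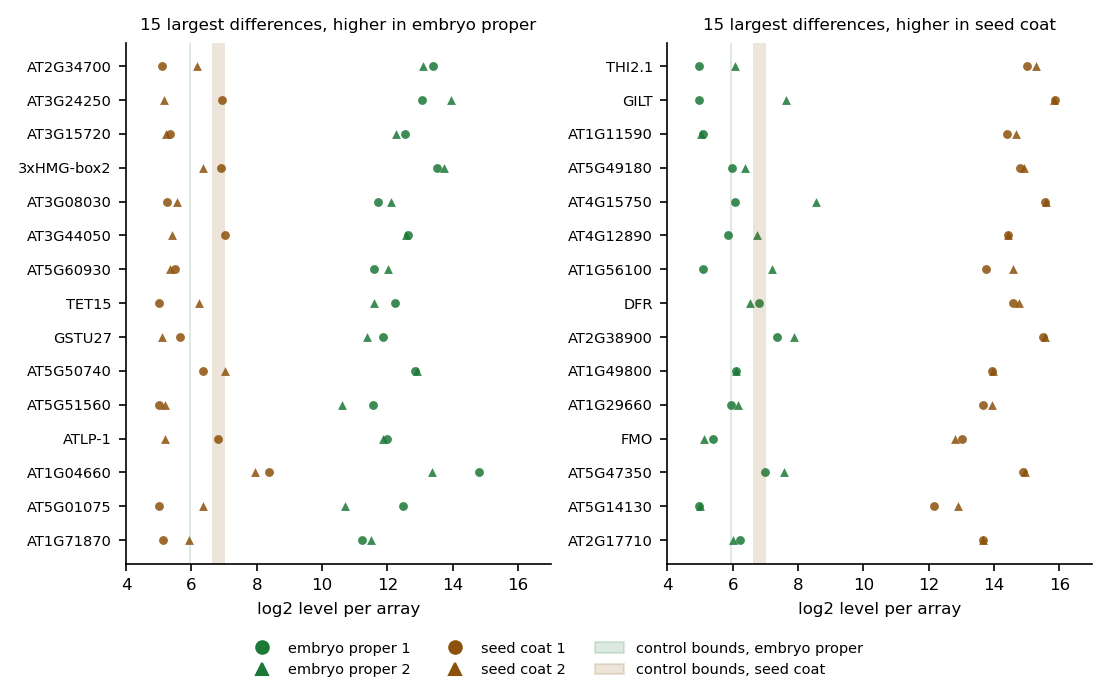
Level on each of the 4 arrays (log2) for the 15 genes with the largest called difference in each direction, embryo proper in green and seed coat in brown, with circles for replicate 1 and triangles for replicate 2. The shaded bands span the control bounds of the 2 arrays of each tissue; the low side of most genes lies at or near them, and no gene has overlapping groups.

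The largest differences towards the seed coat were larger still. THI2.1 (AT1G72260), a thionin of the antimicrobial peptide class, had 15.02 and 15.29 in the seed coat and 4.98 and 6.08 in the embryo proper, a difference of -9.63 ± 0.80 (adjusted p = 2.31e-09). GILT (AT4G12960), named for a gamma-interferon-inducible lysosomal thiol reductase of animals, had 15.85 and 15.84 against 4.98 and 7.63 (-9.54 ± 0.75). Each of the 2 was at or under the bound on 1 embryo proper array only, so the size of the difference is not exact. AT1G11590 was at or under it on both, with 5.09 and 5.04 against 14.39 and 14.66, and was at least 381-fold higher in the seed coat. FMO (AT1G12200), a flavin monooxygenase, was at least 125-fold higher, with 13.01 and 12.82 against 5.38 and 5.13. AT5G14130 was at least 95.9-fold higher. The remaining 10 genes of this set, DFR among them, were AT5G49180, AT4G15750, AT4G12890, AT1G56100, AT2G38900, AT1G49800, AT1G29660, AT5G47350 and AT2G17710, with differences between -8.69 and -7.54. Groups without overlap, the embryo proper below, were found for 35% of all probe sets. Because the 15 were picked for large called differences on these arrays, a call kept in a refit is no separate evidence. All 15 kept their calls under every alternative run.

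These genes divided by their levels in the chalazal seed coat. DFR averaged 14.7 in the seed coat and 13.9 in the chalazal seed coat, FMO 12.9 and 12.004, and AT2G17710 13.7 and 13.1. THI2.1 averaged 15.2 in the seed coat but 5.93 in the chalazal seed coat, and AT1G11590 14.5 and 6.72. For THI2.1 the whole seeds averaged 12.4 and the 3 endosperm regions 6.07 to 6.57. AT4G15750 was also bright in the peripheral endosperm, at 13.2, beside 15.6 in the seed coat and 10.02 in the chalazal seed coat.

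Flavonoid genes included the largest difference of any listed gene, that of DFR. Of 5 named members, 3 were higher in the seed coat and 0 in the embryo proper, with a median difference of -7.0, and leaving out any 1 array kept all 3. DFR (AT5G42800), dihydroflavonol reductase, had 14.59 and 14.78 in the seed coat and 6.82 and 6.54 in the embryo proper (-8.0 ± 0.55, adjusted p = 9.29e-11). BAN (AT1G61720), the anthocyanidin reductase that leads to proanthocyanidins, had 13.30 and 13.04 against 5.54 and 5.90 and was at least 149-fold higher. CHIL (AT5G05270), a chalcone isomerase-like protein that increases flux into flavonoids, had 12.84 and 13.03 against 5.87 and 5.99. These 3 genes belong to the route to tannins, and their embryo proper levels were at or less than 1 unit above the control bound. The glycosyltransferase UF3GT had 7.55 and 5.58 in the seed coat and 5.18 and 5.23 in the embryo proper (-1.36 ± 0.70, adjusted p = 0.23). UGT80B1, a sterol glucosyltransferase needed for normal seed coat pigment, had 8.58 and 9.04 against 7.95 and 8.10 (adjusted p = 0.624).

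The tannin genes were not confined to the seed coat arrays. BAN averaged 11.4 in chalazal seed coat and 8.46 in peripheral endosperm, where DFR averaged 11.3 and CHIL 8.43. The 5 flavonoid genes summed to 5314 and 2286 on the 2 peripheral endosperm arrays, between the seed coat and the embryo proper. Whether seed coat tissue was cut along with the endosperm was not tested.

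Vacuolar processing enzymes are cysteine proteases that mature vacuolar proteins and act in plant cell death. In the list of vacuolar processing and cell death genes 2 of 5 were higher in the seed coat and 0 in the embryo proper, also with any 1 array left out. DELTA-VPE (AT3G20210), known from the dying inner integument layers, had 14.48 and 14.52 in the seed coat and 8.17 and 8.04 in the embryo proper (-6.40 ± 0.53, adjusted p = 2.31e-09). GAMMA-VPE (AT4G32940), the form of vegetative organs, had 13.27 and 12.89 against 10.16 and 10.07 (-2.96 ± 0.44). BETA-VPE, the seed storage form, had 9.50 and 9.89 against 8.65 and 7.64 and did not pass the test (adjusted p = 0.0632), and ALPHA-VPE had 5.42 and 6.80 against 7.60 and 6.75 (adjusted p = 0.352). The 2 called genes differed in the chalazal seed coat, where DELTA-VPE averaged 7.90 and GAMMA-VPE 13.1. DELTA-VPE averaged 11.2 and 10.7 in the micropylar and peripheral endosperm, above its mean of 8.10 in the embryo proper.

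Among 9 genes for ATG8, the small protein that coats autophagosomes, 5 were higher in the seed coat and 0 in the embryo proper, with a median difference of -1.66. The count was 2 to 4 with 1 array left out. ATG8B (AT4G04620) had 10.61 and 10.46 in the seed coat and 6.50 and 6.49 in the embryo proper (-4.04 ± 0.65) and kept its call throughout. ATG8H (AT3G06420) was at least 5.41-fold higher (8.55 and 8.22 against 5.41 and 5.80), a call lost without the first array of either tissue. APG8H and ATG8F differed by -2.18 ± 0.50 and -1.66 ± 0.41. APG8H lost its call without the second seed coat array and ATG8F without the second array of either tissue. Of 8 subtilases 1 was called, ARA12 (AT5G67360), a subtilisin-like protease of seed mucilage, with 14.12 and 13.75 in the seed coat against 9.13 and 10.15.

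**Figure D3:**
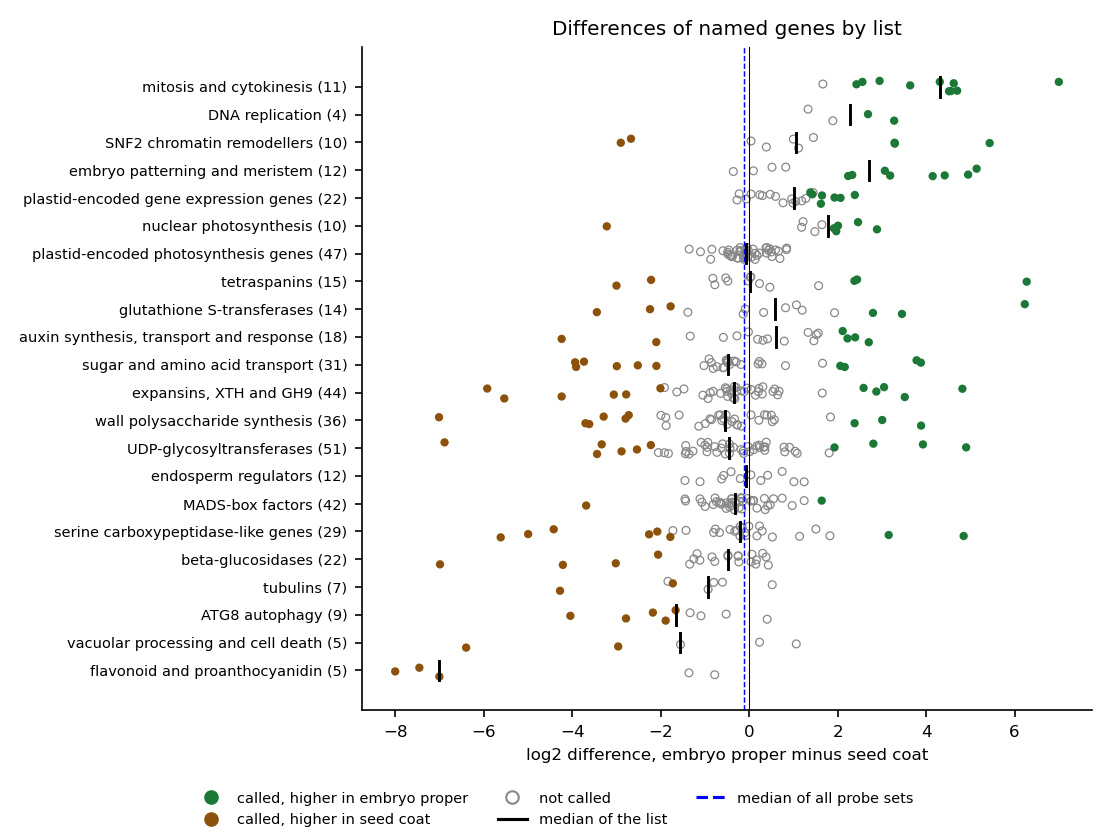
Log2 difference between embryo proper and seed coat for every named gene of 22 lists, with the number of genes in parentheses, filled points where the gene was called and black bars at the list's median. Mitosis (median 4.31) and embryo patterning (2.70) lie to the right, flavonoid genes (-7.0) to the left, and the dashed line is the median of all probe sets (-0.11).

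Genes that loosen or trim the wall and genes of wall polysaccharide synthesis were called in both directions, through different members. Of 44 expansins, xyloglucan endotransglucosylases (XTH) and GH9 glucanases, which loosen or trim the wall, 5 were higher in the embryo proper and 6 in the seed coat. With 1 array left out the counts were 3 or 4 and 4 to 6. EXPA15 (AT2G03090), an expansin, had 10.75 and 11.76 in the embryo proper against 7.67 and 5.20 in the seed coat (4.82 ± 0.89). EXLA1 (AT3G45970), an expansin-like protein, had 13.92 and 14.01 in the seed coat and 9.15 and 6.94 in the embryo proper (-5.92 ± 0.59). GH9B5 was at least 30.2-fold higher in the seed coat, with 10.91 and 10.82 against 5.01 and 5.66. EXGT-A3, an XTH, differed by -4.24 ± 0.62.

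Of 36 genes of wall polysaccharide synthesis, 3 were higher in the embryo proper and 6 in the seed coat, with 1 or 2 and 3 to 5 when an array was left out. The count towards the embryo proper is near the 7.13% of all probe sets called in that direction. The TBL family encodes wall acetyltransferases and related proteins. Its member TBL38 (AT1G29050) had 13.04 and 13.30 in the seed coat and 6.24 and 6.08 in the embryo proper (-7.01 ± 0.66). TBL38 also averaged 12.2 in the chalazal seed coat. TBL36 (AT3G54260) went the other way, with 5.21 and 5.12 in the seed coat against 9.46 and 8.64, and was at least 4.65-fold higher in the embryo proper. GAUT15, of the galacturonosyltransferase family that includes pectin synthases, differed by -3.70 ± 0.70. Among 7 tubulins 2 were higher in the seed coat, or 1 with any array left out, and TUB5 had 9.77 and 10.37 against 6.10 and 5.49 (-4.27 ± 0.74).

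Beta-glucosidases and serine carboxypeptidase-like genes gave more calls towards the seed coat, and UDP-glycosyltransferases gave calls in both directions. Of 22 beta-glucosidases, 4 were higher in the seed coat and 0 in the embryo proper, or 3 with any array left out. BGLU29 (AT2G44470) had 12.38 and 12.64 against 5.88 and 5.17 and was at least 94.2-fold higher, and BGLU40 had 10.30 on both seed coat arrays against 6.15 and 6.04. Of 29 serine carboxypeptidase-like genes, 6 were higher in the seed coat and 2 in the embryo proper. The 6 became 3 or 4 and the 2 became 1 or 2 when an array was left out. The genes scpl35 (at least 34.8-fold) and scpl20 (-4.99 ± 0.59) led in the seed coat, and SCPL45 (AT1G28110) led in the embryo proper, with 12.45 and 12.08 against 6.40 and 8.42 (4.85 ± 0.67).

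Of 51 UDP-glycosyltransferases, which attach sugars to small molecules, 6 were higher in the seed coat and 4 in the embryo proper, with 4 to 6 and 2 or 3 when an array was left out. Of all probe sets 7.62% and 7.13% were called in these directions, and the count towards the embryo proper is near that share. UGT73B1 (AT4G34138), whose family acts on flavonoids among others, had 12.69 and 12.49 in the seed coat and 5.50 and 5.91 in the embryo proper (at least 99.5-fold). UGT87A2 (AT2G30140) and UGT76C2 (AT5G05860), a cytokinin N-glucosyltransferase, went the other way, by 4.91 ± 0.81 and 3.93 ± 0.80. UGT87A2 averaged 11.9 in the peripheral endosperm, above its mean of 10.6 in the embryo proper. The 14 glutathione S-transferases split evenly at 3 and 3, or 1 to 3 and 1 or 2 with an array left out. GSTU27 is described above. GSTU20 differed by 3.46 ± 0.83, a call lost without the first array of either tissue, and GSTU16 by -3.44 ± 0.73.

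Transporters were also called in both directions. Of 31 sugar and amino acid transporters, 4 were higher in the embryo proper and 6 in the seed coat, or 2 and 3 with any array left out. The SWEET genes encode sugar uniporters that release or take up sugar across membranes. SWEET9 (AT2G39060), known from nectaries, had 10.34 and 11.05 in the embryo proper against 6.79 and 6.84 in the seed coat (3.88 ± 0.83, a call lost with an offset of 1), and AtVEX1 (AT5G62850), which is SWEET5, was at least 6.14-fold higher. SWEET1 (AT1G21460) had 9.71 and 9.40 in the seed coat and 6.24 and 5.04 in the embryo proper (-3.91 ± 0.73). SWEET7 (-2.99 ± 0.79) and TMT1, a tonoplast monosaccharide transporter (-2.52 ± 0.66), were higher in the seed coat, and both calls were lost with any 1 array left out. SWEET11, known to feed seeds with sucrose, was at or under the bound on all 4 arrays, between 5.13 and 6.12. ZIP6 (AT2G30080), of a family of zinc and iron transporters, had 12.40 and 11.95 in the seed coat and 6.01 and 6.45 in the embryo proper, the 1 called gene of 6 metal transporters.

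In the list of starch and sugar metabolism genes, calls were made towards the seed coat only. Of 8 named members 2 were higher in the seed coat, or 1 with any array left out. APL3 (AT4G39210), a large subunit of ADP-glucose pyrophosphorylase, the first committed step to starch, had 11.38 and 11.19 in the seed coat and 6.01 and 6.48 in the embryo proper (-5.04 ± 0.65, adjusted p = 2.5e-06). Its mean was 8.74 in chalazal seed coat and 6.19 to 6.45 across 3 endosperm regions.

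Photosynthesis genes of the nucleus were called mainly towards the embryo proper, and none of the plastid's own passed the test. Of 10 nuclear genes, 5 were higher in the embryo proper and 1 in the seed coat, and the 5 became 1 to 4 with an array left out, 1 of them without the first embryo proper array. PSAN (AT5G64040) and PSAE-1, subunits of photosystem I, differed by 2.89 ± 0.68 and 2.46 ± 0.59, and both lost their calls without the first embryo proper array, PSAN also without the first seed coat array. PSBW (AT2G30570), of photosystem II, had 12.38 and 12.14 in the embryo proper against 10.15 and 10.43 in the seed coat (1.97 ± 0.42) and kept its call. PRK, a Calvin cycle kinase, differed by 2.01 ± 0.47, a call lost without the first embryo proper or the second seed coat array. The antenna protein gene LHCB4.3 (AT2G40100) went the other way, with 11.83 and 11.58 in the seed coat and 9.13 and 7.85 in the embryo proper (-3.22 ± 0.57), while its relative LHCB4.2 differed by 1.92 ± 0.63 (adjusted p = 0.0376), a call lost without any 1 of the 4 arrays.

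Of 47 plastid-encoded photosynthesis genes 0 were called in either direction by limma, 1 had an unadjusted p under 0.05, and the median difference was -0.07. Of 22 plastid-encoded genes for the plastid's own transcription and translation, 7 were higher in the embryo proper and 0 in the seed coat, with a median of 1.02, and 1 to 3 were called with an array left out. The ribosomal protein gene rpl16 had 13.67 and 13.70 against 11.18 and 11.42 (2.39 ± 0.42), and rps3 12.92 and 12.77 against 10.41 and 11.14 (2.07 ± 0.47, lost without the first seed coat array). The gene rpl16 was about as bright in the endosperm, where it averaged 13.4 to 14.1. Plastid transcripts are often joined in long precursors, so neighbouring genes such as rpl16 and rps3 are not independent.

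Hormone genes were called in both directions. Of 18 auxin genes, 4 were higher in the embryo proper and 2 in the seed coat, or 1 to 3 and 1 with an array left out. IAA31 (AT3G17600), of the Aux/IAA family of auxin response repressors, was at least 13.0-fold higher in the seed coat, with 9.68 and 9.63 against 5.25 and 5.58. PID2 (AT2G26700), a kinase related to the regulator of auxin efflux PINOID, was at least 1.57-fold higher in the embryo proper (7.20 and 7.77 against 5.03 and 5.15). RR22 (AT3G04280), of the response regulator family of cytokinin signalling, the 1 called gene of 6 cytokinin genes, had 10.73 and 9.74 in the seed coat and 5.00 and 5.24 in the embryo proper and was at least 19.5-fold higher. Its level was higher still in the chalazal seed coat, where it averaged 14.2. The gibberellin receptor genes GID1A and GID1B differed in opposite directions, by -2.26 ± 0.69 and 2.25 ± 0.66 (adjusted p = 0.0243 and 0.0201), and both calls were lost with any 1 array left out.

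Among transcription factors, few MADS-box genes were called. Of all probe sets 7.13% and 7.62% were called towards the embryo proper and the seed coat. In the MADS-box list 20 genes were at or under the control bound on all 4 arrays. Of 42 MADS-box genes 1 was higher in the embryo proper and 1 in the seed coat, the former in none of the fits with an array left out, and 31 were at or under the bound on both seed coat arrays. AGL18 (AT3G57390) had 11.86 and 11.38 in the seed coat and 8.0 and 7.88 in the embryo proper (-3.68 ± 0.52), and it averaged 13.6 in the chalazal seed coat. bZIP44 (AT1G75390) had 12.85 and 13.08 against 6.97 and 8.11 (-5.42 ± 0.54). Among 15 IQD genes, for calmodulin-binding proteins at microtubules and membranes, 5 were higher in the embryo proper and 2 in the seed coat, or 1 to 4 and 0 or 1 with an array left out. IQD31 (AT1G74690) had 11.92 and 11.65 in the embryo proper against 8.02 and 8.86 (3.35 ± 0.60). Of 14 genes of the TRM family, which recruits proteins to cortical microtubules, 1 was higher in the embryo proper and 2 in the seed coat. The count towards the embryo proper is near the 7.13% of all probe sets called in that direction. TRM28 was at least 11.6-fold higher in the embryo proper, whereas TRM20 and TRM15 differed by -2.44 ± 0.73 and -2.24 ± 0.69.

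Some genes that were higher in the embryo proper than in the seed coat were brightest in the micropylar endosperm, which surrounds the embryo. PDF2.1 (AT2G02120), a plant defensin, had 10.79 and 9.52 in the embryo proper against 5.67 and 5.33 in the seed coat (4.65 ± 0.68, adjusted p = 1.38e-05), but averaged 13.9 in the micropylar endosperm. GH9C1 had 9.77 and 9.36 against 7.0 and 5.09 and averaged 12.9 in the micropylar endosperm. OLEO3, an oil body protein, differed by 3.45 ± 0.85, a call lost without the first embryo proper or the second seed coat array, and averaged 11.4 in the micropylar endosperm beside 10.39 and 9.02 in the embryo proper. SWEET8 was at least 1.31-fold higher in the embryo proper than in the seed coat, a call lost with any 1 array left out, and averaged 12.4 in the chalazal endosperm. A share of endosperm tissue in the embryo proper captures was not tested.

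**Figure D4:**
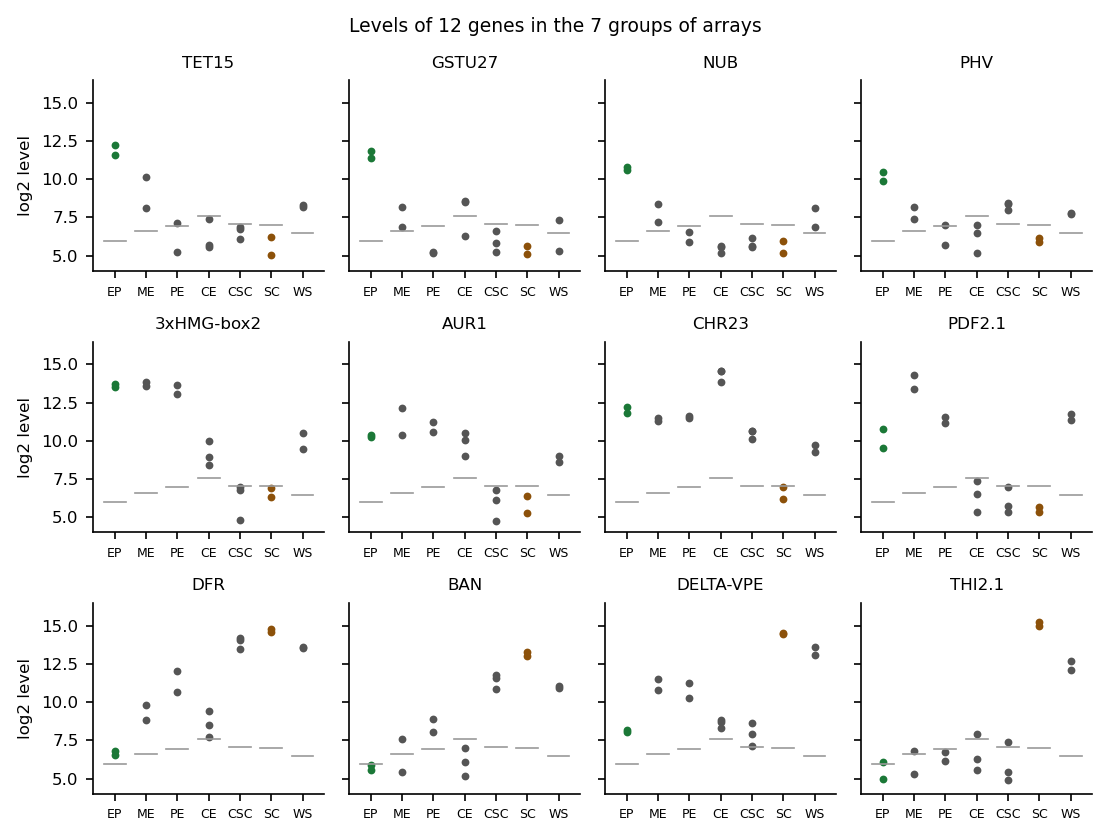
Level (log2) on every array for 12 genes in 7 groups, which are embryo proper (EP), endosperm of the micropylar (ME), peripheral (PE) and chalazal (CE) regions, seed coat (SC), its chalazal part (CSC) and whole seeds (WS), 1 point per array, with grey lines at the highest control bound of each group. TET15, GSTU27, NUB and PHV are highest in the embryo proper, 3xHMG-box2 is about as high in 2 endosperm regions, PDF2.1 peaks in the micropylar endosperm, and THI2.1 is high only in the seed coat and whole seeds.

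The division between embryo proper and seed coat was then set against comparisons that share no array with it. The mean of micropylar and peripheral endosperm was compared with the chalazal seed coat, which again sets fertilised against maternal tissue. There 15.4% of all probe sets were higher in the endosperm and 10.2% higher in the chalazal seed coat. Of the 1622 probe sets higher in the embryo proper, 944 (58.2%) were also higher in that endosperm, which is 27.0% of the 3499 called there, and 58 (3.58%) were higher in the chalazal seed coat. Of the 1733 higher in the seed coat, 749 (43.2%) were also higher in the chalazal seed coat, which is 32.2% of the 2327 called there, and 90 (5.19%) were higher in the endosperm. Among named genes, 3xHMG-box2 and AUR1 had high levels in the embryo proper and in micropylar and peripheral endosperm, and DFR, BAN and CHIL in both seed coat regions.

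In the comparison of chalazal endosperm with chalazal seed coat, the shares called in the same direction were smaller and those called in the opposite direction larger. Of the 1622 probe sets, 393 (24.2%) were also higher in the chalazal endosperm, against 15.6% of all probe sets, and 153 (9.43%) were higher in the chalazal seed coat. Of the 1733, 716 (41.3%) were also higher in the chalazal seed coat, against 13.5% of all, and 207 (11.9%) were higher in the chalazal endosperm. The chalazal arrays had larger spread between replicates, with a median SD of 0.68 for the endosperm and 0.63 for the seed coat of that region, each over 3 arrays. The difference between both contrasts was tested directly in the same model, and 4276 probe sets (18.8%) passed.

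**Figure D5:**
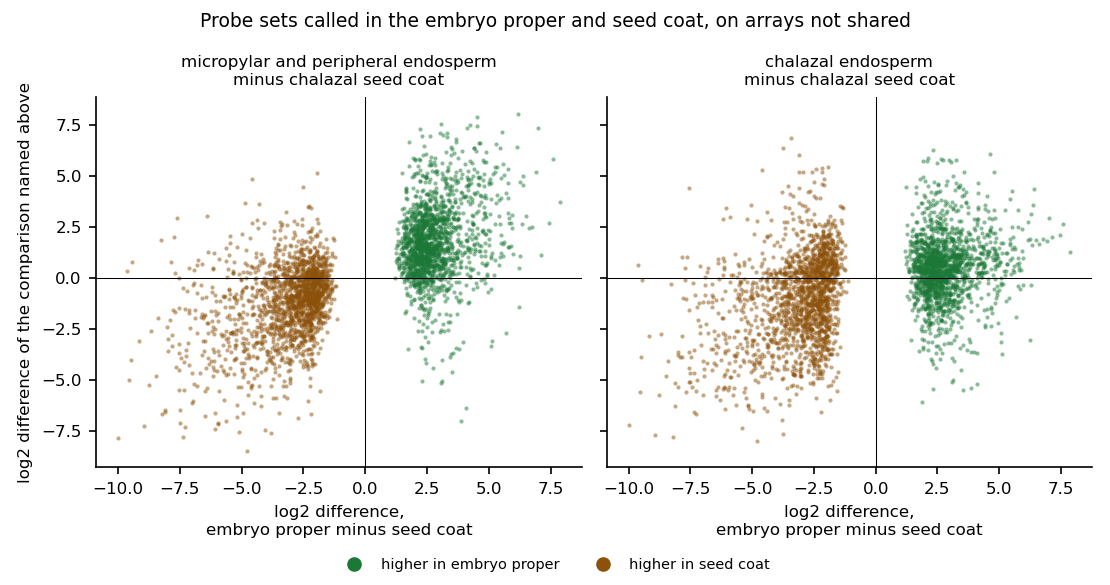
Differences (log2) of the 3355 called probe sets between embryo proper and seed coat on the horizontal axes, against the differences of 2 comparisons that use none of the same arrays on the vertical axes. Most probe sets higher in the embryo proper (green) lie above 0 in the left panel, where 944 were called higher in the endosperm and 58 in the chalazal seed coat; in the right panel they lie closer to 0.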

How the data were processed

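The authors deposited a linear signal intensity for each probe set and array, made with GCOS per the submitters' processing notes, which give neither version nor settings. On every array the mean without the lowest and highest 2% of probe sets was 500.04 to 500.08. Of 22810 probe sets, 64 controls were left out. Of the 22746 others, 13513 name 1 gene in the platform annotation, 503 several and 8730 none. Symbols and loci follow the TAIR10.1 gene table, and no coordinates are given because no source used here names the build of the probe sets.

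Values were transformed as log2(intensity + 30.2), the offset being the 25th percentile, and arrays were centred on their medians, which ranged from 100.01 to 185.4. One model with 7 group means over all 16 arrays was fitted in R 4.3.3 with limma 3.58.1, using a trend of the variance with intensity, and the procedure was tested on simulated data. Two-sided p-values were adjusted over all probe sets by Benjamini-Hochberg, with a threshold of 0.05, and each ± after a difference is the model's SE. The number of arrays limits the precision of every value. A gene with several probe sets is represented in its list by the brightest.

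Named genes are the 15 largest differences per direction, the 4 genes of each list with the smallest p and the tissue markers; not all are printed. AUR2, AUR3, 3xHMG-box1, BUB3.1, BUB3.2, ATMAP65-6, JKD, YAB3, YAB5, CLV3, KEU, EXPA15, GH9C1, LHCB4.2, PSAE-1, SWEET7, SWEET8, SWEET9, TMT1 and UGT80B1 fall outside this rule and were chosen after their values were seen. Members, the 55 lists and the control bound were chosen with earlier results of these data known, and 13 lists (among them tetraspanins, serine carboxypeptidase-like genes, beta-glucosidases, tubulins, MADS-box genes and chromatin remodellers) with the values at hand. Lists of aquaporins, MYB factors and abscisic acid genes matched no named probe set. Alternatives were another offset, no centring, quantile normalisation, a filter on dim probe sets, the 4 arrays alone, array weights, no trend, a replicate block, each array left out, and for lists the dimmest probe set.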

Additional observations from a re-analysis of the deposited data

Results flagged for a closer look

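Of the genes named in the report, 6 differed between embryo proper and seed coat in one direction and between chalazal endosperm and chalazal seed coat in the other. Both contrasts set fertilised against maternal tissue and share no array. For each gene both differences passed the threshold, and so did the interaction, the first contrast minus the second, tested in the same limma model. Because the genes were picked for called differences of opposite sign, their interactions are large by that choice and are no separate evidence. PHV, the adaxial homeodomain gene, was higher in the embryo proper than in the seed coat (4.15) and higher in the chalazal seed coat than in the chalazal endosperm (-2.05 ± 0.57, adjusted p = 0.0069), an interaction of 6.20 ± 0.90 (adjusted p = 1.91e-05). LHW, the vascular regulator, gave 2.24 and -3.95 ± 0.62, an interaction of 6.19 ± 0.99 (adjusted p = 5.73e-05). GSTU20 gave 3.46 and -4.48 ± 0.68, an interaction of 7.94 ± 1.07 (adjusted p = 8.29e-06). The sugar transporter gene TMT1 ran the other way, with -2.52 in the seed coat contrast and 2.66 ± 0.54 in the chalazal one, an interaction of -5.18 ± 0.85 (adjusted p = 8.4e-05). ATG8H gave -2.78 and 1.60 ± 0.55, an interaction of -4.38 ± 0.87 (adjusted p = 0.000643), and ATG8F -1.66 and 0.96 ± 0.33, an interaction of -2.62 ± 0.53 (adjusted p = 0.000755). The calls of LHW, GSTU20, TMT1, ATG8H and ATG8F between embryo proper and seed coat were lost without at least 1 of the 4 arrays, whereas that of PHV was kept.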

How the results depend on the processing

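The counts of called probe sets, 1622 higher in the embryo proper and 1733 higher in the seed coat, depended on how the spread was estimated. They were 2761 and 2825 with the 4 arrays alone, 3357 and 3373 with array weights and 891 and 1114 at an adjusted p of 0.01. With 1 array left out, so that 1 tissue had a single array assumed to vary like the other groups, they were 759 to 914 and 963 to 1053. The interaction with the chalazal contrast gave 1111 to 1299 calls upward and 1518 to 1610 downward under the same omissions, in place of 1916 and 2360. Over all lists, 82 genes were called higher and 75 lower, 125 and 121 with array weights, and 42 to 51 and 47 to 53 with 1 array left out. The offset, centring, quantile normalisation, filter and trend kept the counts of probe sets within 1.5 times; quantile normalisation moved the median difference of all probe sets by 0.11. Same-numbered arrays showed little shared deviation from their group means (a correlation of -0.02 between embryo proper and seed coat and at most 0.09 between any groups). This cannot tell whether same-numbered samples came from the same plants, which the labels do not say. The replicate block gave 1814 and 1863 calls. The named genes that lost their calls with an offset of 1 were SWEET9, SWEET7, TMT1, JKD, LHW, BUB3.2, GID1A, LHCB4.2, UGT78D1 and UGT78D2. Quantile normalisation ended the calls of LHCB4.2 and UGT78D2, the fit with no trend those of LHW, UGT78D1 and cox1, and an offset of 100 that of SWEET8. Among genes not called, the sign turned when an array was left out for AGL62 (range -0.307 to 0.386, with -0.241 in between), IKU2 (-0.760 to 0.363, with 0.248 in between), YAB3 (-0.0293 to 1.06) and CLV3 (-0.0680 to 0.264), whose seed coat levels were at or under the control bound. Signal over background limits every difference whose low side lies at the bound, which was higher on the seed coat arrays.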

Other observations

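Subunits of the nuclear RNA polymerases that make ribosomal and transfer RNA were among the genes higher in the embryo proper. Of 12 named polymerase subunits 3 were higher there and 0 in the seed coat, or 0 or 1 with an array left out. NRPA1 and NRPA2, the large subunits of RNA polymerase I, differed by 2.25 ± 0.63 and 1.81 ± 0.56, and NRPC2, the second subunit of RNA polymerase III, by 2.04 ± 0.62. NRPA1 and NRPC2 lost their calls with any 1 array left out, and NRPA2 kept its call only without the second seed coat array.

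Among glycosyltransferases that decorate flavonols, UGT78D1, a rhamnosyltransferase, was bright in both tissues, with 12.94 and 12.17 in the embryo proper against 15.01 and 14.54 in the seed coat (-2.22 ± 0.68, adjusted p = 0.0244). UGT78D2, a flavonoid glucosyltransferase, differed by 1.93 ± 0.64 (adjusted p = 0.0423). Both were chosen after their values were seen and lost their calls with any 1 array left out. The mitochondrial gene cox1, the 1 called gene of 16 mitochondria-encoded genes, differed by -1.49 ± 0.39, a call lost without the first array of either tissue.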
